A study of Schizosaccharomyces pombe with 9 samples.

Results

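The proteasome genes of Schizosaccharomyces pombe were taken as every protein-coding gene whose product description in the deposited annotation holds the word proteasome. There were 46 such genes among 5111 protein-coding genes in the count table. They encode 7 alpha and 7 beta subunits of the 20S core particle, 11 base and 10 lid subunits of the 19S regulatory particle, 7 assembly or maturation factors and 4 other proteasome-associated proteins. Of the 46 genes, 45 had at least 10 counts in at least 3 libraries and were tested, and fub2 was the exception.

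RNA was profiled in 3 groups of 3 biological replicates, all from h- strains in vegetative log phase growth in rich YES medium. In snf22∆ most of the coding sequence of snf22, whose product is the ATPase of the chromatin remodeler SWI/SNF, was replaced by a kanMX drug resistance marker and the last part of the open reading frame was kept. In snf22-(D996A-E997A) the ATPase motif carried the alanine changes D996A and E997A, and the same marker stood downstream of the gene. In WT, snf22 was intact and the labels name no marker, so an effect of the marker cannot be told apart from that of either allele. Each genotype was 1 strain, and the replicates were separate samples of that strain.

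The 26S proteasome degrades proteins that carry ubiquitin chains. The 20S core is a barrel of alpha rings around beta rings, with proteolytic sites on the β1, β2 and β5 subunits, and the 19S particle binds ubiquitin, removes it and unfolds the substrate with a ring of Rpt ATPases. Dedicated chaperones put the core and the base together. In budding yeast the genes are controlled together by the transcription factor Rpn4.

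Libraries held 15696972 to 22664218 counts. The share of counts from proteasome genes was 0.851, 0.830 and 0.846% in the snf22∆ libraries, 0.771, 0.767 and 0.757% in snf22-(D996A-E997A), and 0.774, 0.720 and 0.783% in WT cells. The targeted gene had 1471, 1379 and 1222 normalized counts in snf22∆ cells and 1966, 2273 and 2312 in snf22-(D996A-E997A), against 2835, 2779 and 2738 in WT. WT replicate 2 and snf22-(D996A-E997A) replicate 1 stood apart from their groups, with a chi-square per gene of 71.8 and 60.0 against the other WT libraries (9.30 between those) and of 33.7 and 35.8 against the other snf22-(D996A-E997A) libraries (5.26 between those). For proteasome genes, calls that changed and called values that moved by over 1.5 times without them are given beside the results. Summed counts of 6 M-cell genes, which mark the h- mating type, were 3956 to 4906 in snf22∆, 10343 to 11247 in snf22-(D996A-E997A) and 5900 to 6629 in WT, and those of 3 P-cell genes were 1788 to 1834, 1588 to 1709 and 1886 to 1961 in the same groups, so the P-cell genes were not at 0. The part of these differences in the results was not tested.

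Most shifts in proteasome transcripts were small, and they went both ways. In RNA from whole cultures a change in every cell and a change in the share of cells cannot be told apart. In snf22∆, 22 of the 45 genes rose and 8 fell relative to WT at an adjusted p of at most 0.05, which is 48.9% and 17.8% of them, beside 33.5% and 24.7% of all coding genes tested. In snf22-(D996A-E997A), 12 rose and 8 fell, which is 26.7% and 17.8%, beside 28.1% and 19.7% of all coding genes. The median log2 fold change of the 45 genes was 0.13 in snf22∆ cells and 0.03 in snf22-(D996A-E997A), beside 0.06 and 0.06 over all coding genes. With DESeq2 size factors in edgeR the numbers of higher and lower genes were 19 and 10 for snf22∆ and 10 and 10 in snf22-(D996A-E997A), and with the DESeq2 test they were 20 and 12, and 11 and 10. The call of a 2-fold change (adjusted p of at most 0.05, at least 2-fold, and a mean of at least 100 normalized counts in the higher group) was met by 1 gene in each mutant, nas6, which was higher in both. The same call was met upward by 2.22% and downward by 2.22% of coding genes in snf22∆, and by 1.51% and 1.75% in snf22-(D996A-E997A).

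The mutants were compared with the same WT libraries, so their lists are not independent. Both lists of higher genes held rpn501, pam1, nas2, pup2, rpn15, nas6, rpn502, pac3, rpn12, rpt6, pre4 and rpn1302, and both lists of lower genes held rpn11, scl1, ump1, rpn8 and pre10. Another 10 genes passed the test upward and 3 downward in snf22∆ alone, 3 passed downward in snf22-(D996A-E997A) alone, and none passed in opposite directions. Shares of all coding genes were not taken beside these counts or beside the counts with libraries left out below. Whether the overlap of the lists is particular to proteasome genes was therefore not tested. The 12 genes that passed in neither were ecm29, cut8, pre1, rpn9, pre6, rpn3, rpn1301, pre3, mts4, SPCC18.17c, pac4 and rpt3, with values from -0.20 for pre3 in snf22-(D996A-E997A) to 0.13 for rpn3 in snf22∆. Of the 22 higher genes in snf22∆, 16 stayed past the threshold whichever library was left out, as did 6 of the 8 lower genes. In snf22-(D996A-E997A) that held for 5 of 12 higher and 4 of 8 lower genes. There the number of higher genes was 7 without snf22-(D996A-E997A) replicate 1 and 5 without its replicate 3, and the number of lower genes was 5 and 4 without the same libraries. Without WT replicate 2 there were 17 higher and 7 lower genes in snf22∆, and 8 and 8 in snf22-(D996A-E997A), whose median log2 fold change then became -0.01. Without both libraries that stood apart the numbers were 22 and 8, and 9 and 7. The calls lost were those of fub1 and ump1 in snf22∆ and of pre4, rpn501, rpn502, rpt6, scl1 and ump1 in snf22-(D996A-E997A) (adjusted p 0.0586 to 0.261). The calls gained were those of rpn1301 (0.0383) and pre8 (0.0278) in snf22∆ and of rpt4 (0.0295) and cut8 (0.0204) in snf22-(D996A-E997A).

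**Figure D1:**
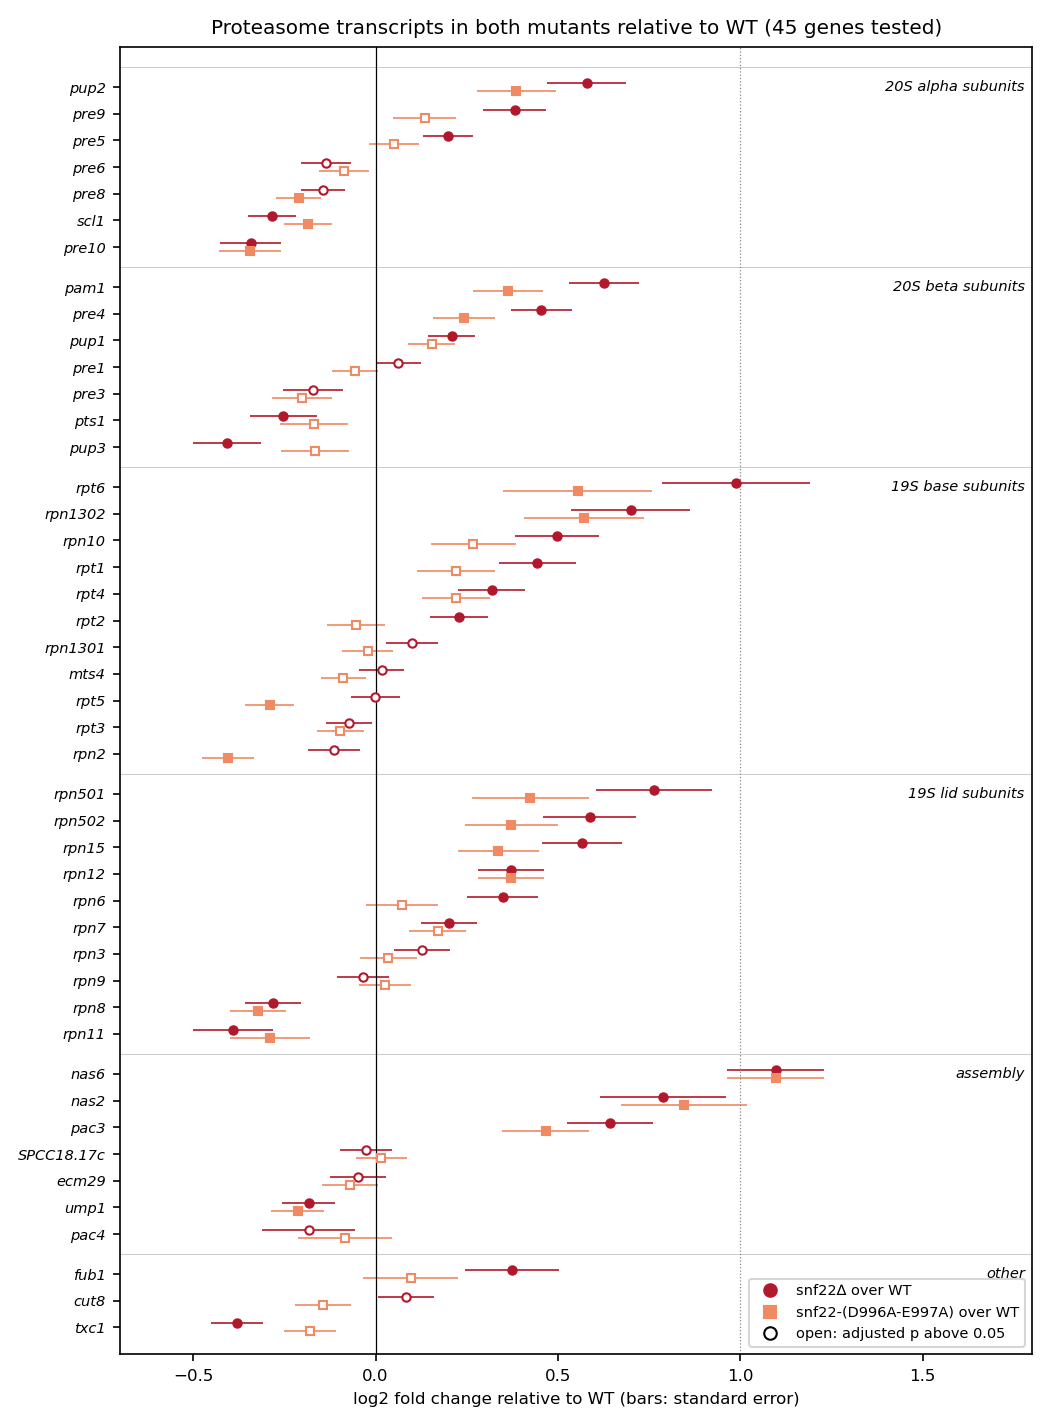
Log2 fold changes of the 45 proteasome genes tested, in snf22∆ (circles) and snf22-(D996A-E997A) (squares) relative to WT, grouped by role; bars are standard errors from edgeR, filled symbols have an adjusted p of at most 0.05, and the dotted line marks 2-fold. All points lie between -0.41 and 0.85 except rpt6 in snf22∆, at 0.99, and nas6 in both mutants, at 1.10.

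The direction varied with the level of the transcript. Among the 8 genes with a mean below 1000 normalized counts over the 9 libraries, 7 rose and none fell in snf22∆, with a median log2 fold change of 0.67. Among the 19 genes between 1000 and 4000, 12 rose and 2 fell, with a median of 0.35. Among the 18 genes above 4000, 3 rose and 6 fell, with a median of -0.13. In snf22-(D996A-E997A) the same classes had 6, 6 and 0 higher genes, 0, 1 and 7 lower genes, and medians of 0.45, 0.13 and -0.17. Of the coding genes in these classes, 50.8, 27.3 and 10.9% rose and 8.90, 26.4 and 52.9% fell in snf22∆, and 44.2, 22.5 and 6.73% rose and 7.31, 20.2 and 43.2% fell in snf22-(D996A-E997A).

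Coding genes in general ran the same way. Their median log2 fold change in the classes below 1000, from 1000 to 4000 and above 4000 was 0.38, -0.01 and -0.23 in snf22∆, and 0.33, 0.01 and -0.20 in snf22-(D996A-E997A). Across genes, the rank correlation of fold change with level was -0.70 over the 45 proteasome genes and -0.47 over 4965 coding genes in snf22∆ (Pearson -0.70 and -0.29), and -0.74 and -0.48 in snf22-(D996A-E997A) (Pearson -0.75 and -0.21). These points share libraries and are a description across genes. A relation of the same kind separated libraries of 1 group. Over the proteasome genes the rank correlation with level was 0.59 for WT replicate 2 against the other WT libraries and -0.63 for WT replicate 3. It was 0.55 and -0.57 for snf22-(D996A-E997A) replicates 2 and 3 against the rest of their group. For snf22∆ replicates 2 and 3 it was 0.35 and -0.44. Over coding genes the same libraries had 0.47 and -0.57 (WT), 0.27 and -0.39 (snf22-(D996A-E997A)), and 0.41 and -0.19 (snf22∆). Without WT replicate 2 the rank correlations over the proteasome genes were -0.73 in both mutants. The part of this relation in each gene's fold change was not tested.

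**Figure D2:**
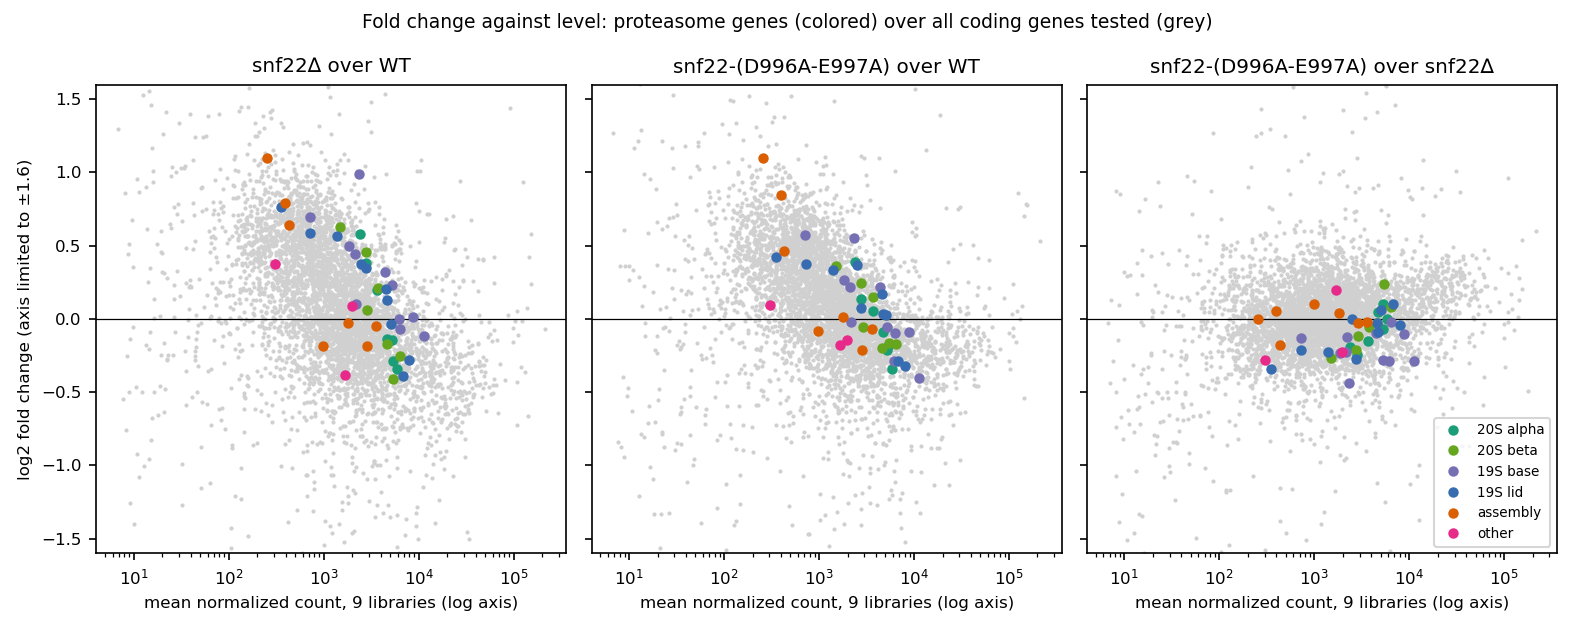
Log2 fold change (vertical axis, limited to ±1.6) against the mean normalized count over 9 libraries (horizontal log axis) for proteasome genes, colored by role, over all 4965 coding genes tested, in grey, of which 100, 99 and 51 lie outside the limits from left to right. The proteasome genes slope down from low to high levels in both mutants relative to WT, with rank correlations of -0.70 and -0.74, against 0.24 between the mutants.

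The alpha subunits, which form the outer rings of the core and gate the entry to its chamber, divided into 3 that rose and 2 that fell in snf22∆, with a median log2 fold change of -0.14. In snf22-(D996A-E997A) 1 rose and 3 fell, with a median of -0.09. The counts of this and the other classes, of at most 11 genes each, stand beside the shares of all coding genes given above. The largest rise was in pup2 (SPAC323.02c), the α5 subunit, which had 2833, 2664 and 2954 normalized counts in snf22∆ cells and 2315, 2435 and 2644 in snf22-(D996A-E997A), against 1874, 1577 and 2211 in WT. All libraries of each mutant lay above WT, and the log2 fold change was 0.58 ± 0.11 in snf22∆ (adjusted p 0.0011) and 0.39 ± 0.11 in snf22-(D996A-E997A) (adjusted p 0.013; 0.0597 without snf22-(D996A-E997A) replicate 3) by edgeR. The α3 subunit gene pre9 had 3374, 3076 and 3198 counts in snf22∆ cells and 2634, 2735 and 2764 in snf22-(D996A-E997A), against 2493, 2149 and 2768 in WT. It rose in snf22∆ by a log2 fold change of 0.38 ± 0.09 (adjusted p 0.00344), while in snf22-(D996A-E997A), where the libraries overlapped with WT, the value was 0.13 ± 0.09 (adjusted p 0.215).

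In the opposite direction, pre10, the α7 subunit, had 5309, 5479.6 and 5351 normalized counts in snf22∆ cells and 5407, 5541 and 5178 in snf22-(D996A-E997A), against 6764, 7678 and 6025 in WT. All mutant libraries lay below WT, and the log2 fold changes were nearly the same, -0.34 ± 0.08 (adjusted p 0.00525) in snf22∆ cells and -0.34 ± 0.08 (adjusted p 0.00684) in the snf22-(D996A-E997A) mutant. For scl1, the α1 subunit, the values were 4824, 4968 and 4843 in snf22∆ cells and 5078, 5449.9 and 5166 in snf22-(D996A-E997A), against 6102, 6172 and 5557 in WT. It fell in snf22∆ (-0.28 ± 0.07; adjusted p 0.00376) and in snf22-(D996A-E997A) (-0.18 ± 0.07; adjusted p 0.0374), and the snf22-(D996A-E997A) call was lost without WT replicate 1, any snf22∆ library or any snf22-(D996A-E997A) library (adjusted p 0.0505 to 0.127). Of the other alpha genes, pre5 (α6) rose in snf22∆ (0.20 ± 0.07; adjusted p 0.0275), a call lost without WT replicate 2, snf22∆ replicate 1 or 2, or snf22-(D996A-E997A) replicate 3 (adjusted p 0.0578 to 0.116), with a value of 0.13 without WT replicate 2. The α2 gene pre8 fell in snf22-(D996A-E997A) (-0.21 ± 0.06; adjusted p 0.0145; 0.0541 without its replicate 3), and the α4 gene pre6 passed in neither mutant.

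The beta subunits also split. In snf22∆ 3 rose and 2 fell, with a median of 0.06, and in snf22-(D996A-E997A) 2 rose and none fell, with a median of -0.06. The largest rise was in pam1 (SPAC22F8.06), the noncatalytic β6 subunit, at 1828, 1736 and 1873 normalized counts in snf22∆ cells and 1591, 1432 and 1504 in snf22-(D996A-E997A), against 1225, 996.8 and 1301 in WT. No mutant library overlapped with WT, and the log2 fold change was 0.63 ± 0.10 in snf22∆ (adjusted p 3.32e-04) and 0.36 ± 0.10 in snf22-(D996A-E997A) (adjusted p 0.01), where it was 0.22 (0.0162) without both libraries that stood apart. The β7 gene pre4 had 3354, 3176 and 3136 counts in snf22∆ cells and 2873, 2768 and 2705 in snf22-(D996A-E997A), against 2564, 2033 and 2454 in WT, again with no overlap. Its log2 fold change was 0.45 ± 0.08 in snf22∆ (adjusted p 0.00108) and 0.24 ± 0.08 in snf22-(D996A-E997A) (adjusted p 0.0335), and the call in snf22-(D996A-E997A) was lost without WT replicate 2, snf22∆ replicate 2 or any snf22-(D996A-E997A) library (adjusted p 0.053 to 0.0878), with a value of 0.13 without WT replicate 2 and 0.12 without both libraries that stood apart.

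The 3 catalytic subunits did not move as a unit. The β2 gene pup1, for the trypsin-like site, had 4131, 3977 and 3802 normalized counts in snf22∆ cells and 3729.6, 3929 and 3804 in snf22-(D996A-E997A), against 3627, 3284 and 3394 in WT. It rose in snf22∆ by 0.21 ± 0.06 on the log2 scale (adjusted p 0.0175), a call lost without WT replicate 2 or 3 or snf22∆ replicate 1 or 2 (adjusted p 0.055 to 0.0771), and its value in snf22-(D996A-E997A) was 0.15 ± 0.07 (adjusted p 0.0698). The β5 gene pts1, for the chymotrypsin-like site, had 5912, 6192 and 5685 counts in snf22∆ cells and 6753, 6476 and 5632 in snf22-(D996A-E997A), against 6706, 7942 and 6553 in WT. It fell in snf22∆, with a log2 fold change of -0.25 ± 0.09 (adjusted p 0.0351); this call was lost without WT replicate 2, any snf22∆ library or snf22-(D996A-E997A) replicate 2 (adjusted p 0.0502 to 0.114) and stood at -0.16 (0.0436) without both libraries that stood apart. The value in snf22-(D996A-E997A) was -0.17 ± 0.09 (adjusted p 0.148). The β1 gene pre3, for the caspase-like site, had 4317, 4587 and 4459 counts in snf22∆ cells and 4517, 4475 and 4104 in snf22-(D996A-E997A), against 4827, 5630.1 and 4600.0 in WT, and passed in neither mutant (-0.17 ± 0.08; adjusted p 0.091, and -0.20 ± 0.08; adjusted p 0.0596). Both mutants lay below WT for pre3 in every library. Of 17 alternative fits, pre3 passed downward in 4 for snf22∆ and in 5 for snf22-(D996A-E997A).

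The largest fall among the core genes was in pup3 (SPCC63.12c), the noncatalytic β3 subunit. It had 4574, 4715 and 4593 normalized counts in snf22∆ cells and 5644, 5548 and 5216 in snf22-(D996A-E997A), against 5823, 7158 and 5418 in WT. WT replicate 2 was the highest library. The log2 fold change was -0.41 ± 0.09 in snf22∆ (adjusted p 0.0037), and -0.17 ± 0.09 in snf22-(D996A-E997A) (adjusted p 0.16), where the libraries overlapped with WT. The β4 gene pre1 passed in neither mutant.

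Of the 11 base genes of the 19S particle, 6 rose in snf22∆ (54.5%, beside 33.5% of all coding genes), none fell (beside 24.7%) and 5 did not pass the test, with a median log2 fold change of 0.23. In snf22-(D996A-E997A) 2 rose and 2 fell, with a median of -0.02. The ATPase gene rpt6 (SPBC23G7.12c) had 2600.2, 2406 and 4347 normalized counts in snf22∆ cells and 2567, 2096 and 2251 in snf22-(D996A-E997A), against 1593, 1266 and 1854 in WT. Every mutant library lay above WT, and snf22∆ replicate 3 was far above the rest. The log2 fold change in snf22∆ was 0.99 ± 0.20 (adjusted p 0.00195), and 0.67 (adjusted p 0.00375) without that library. In snf22-(D996A-E997A) it was 0.55 ± 0.20 (adjusted p 0.0418), a call lost without WT replicate 1 or 2 or any snf22-(D996A-E997A) library (adjusted p 0.0592 to 0.125) and at 0.34 (0.261) without both libraries that stood apart.

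Next was rpn1302, 1 of 2 genes for the ubiquitin receptor Rpn13, at 801, 859 and 888.1 normalized counts in snf22∆ cells and 783, 705 and 844 in snf22-(D996A-E997A), against 489, 395 and 689.9 in WT. The groups did not overlap, but the WT libraries ranged widely. Its log2 fold change was 0.70 ± 0.16 in snf22∆ (adjusted p 0.00409) and 0.57 ± 0.16 in snf22-(D996A-E997A) (adjusted p 0.0151; 0.0605 without snf22-(D996A-E997A) replicate 3). Its more abundant paralog rpn1301 passed in neither mutant, at 0.10 ± 0.07 and -0.02 ± 0.07. The other rises in snf22∆ were in rpn10, another ubiquitin receptor (0.50 ± 0.12; adjusted p 0.00383), and in the ATPase genes rpt1 (0.44 ± 0.11; adjusted p 0.00463), rpt4 (0.32 ± 0.09; adjusted p 0.0127; 0.0535 without snf22∆ replicate 1) and rpt2. Without WT replicate 2 the values of rpt1, rpt4 and rpt2 were 0.28, 0.18 and 0.12, and without both libraries that stood apart those of rpt4 and rpt2 were 0.21 and 0.15. In the ASM294v3 annotation 71.0% of rpn10 lies opposite another counted gene, and how strand was handled in counting is not given in the sources used here.

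Both falls in snf22-(D996A-E997A) were in abundant base genes. The scaffold gene rpn2 (SPBC17D11.07c), which had the highest count of all proteasome genes, had 11586, 11762 and 11700.2 normalized counts in snf22∆ cells and 9699, 9558 and 9428 in snf22-(D996A-E997A), against 12466, 13716 and 11778 in WT. All snf22-(D996A-E997A) libraries lay below both other groups. The log2 fold change relative to WT was -0.40 ± 0.07 in snf22-(D996A-E997A) (adjusted p 0.00112), and -0.12 ± 0.07 in snf22∆ (adjusted p 0.187). The ATPase gene rpt5 (SPAC3A11.12c) had 6726, 6804 and 6208 counts in snf22∆ cells and 5328, 5481 and 5342 in snf22-(D996A-E997A), against 6812, 6202 and 6729.5 in WT. Its value was -0.29 ± 0.07 in snf22-(D996A-E997A) (adjusted p 0.0052) and 0.00 ± 0.07 in snf22∆ (adjusted p 0.996), whose libraries overlapped with WT. The whole of rpt5 (100%) lies opposite another counted gene in ASM294v3.

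The lid, which carries the deubiquitylase that strips ubiquitin from substrates, had 6 genes that rose and 2 that fell of 10 in snf22∆, with a median of 0.27, and 4 and 2 in snf22-(D996A-E997A), with a median of 0.12. Its largest rises were in rpn501 and rpn502, paralogs that both encode Rpn5 and have equal coding lengths of 1332 bases. The counting could have dropped or split reads they share, so the values of both are uncertain. For rpn501 the counts were 436, 422 and 477 in snf22∆ cells and 326, 339 and 388 in snf22-(D996A-E997A), against 282, 194 and 310.0 in WT. The groups did not overlap, and the fold change on the log2 scale was 0.76 ± 0.16 in snf22∆ (adjusted p 0.00208) and 0.42 ± 0.16 in snf22-(D996A-E997A) (adjusted p 0.0465). The second call was lost without any 1 library except WT replicate 3 (adjusted p 0.059 to 0.172), with a value of 0.24 without WT replicate 2. For rpn502 the counts were 850.4, 818 and 917 in snf22∆ cells and 751, 687 and 788 in snf22-(D996A-E997A), against 539, 484 and 700.3 in WT, where replicate 3 overlapped with snf22-(D996A-E997A). Its log2 fold change was 0.59 ± 0.13 in snf22∆ (adjusted p 0.00266) and 0.37 ± 0.13 in snf22-(D996A-E997A) (adjusted p 0.0321), and the snf22-(D996A-E997A) call was lost without WT replicate 1 or 2 or snf22-(D996A-E997A) replicate 1 or 3 (adjusted p 0.0727 to 0.11).

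The deubiquitylase gene rpn11 (SPAC31G5.13) went down. It had 6019, 6111 and 5937 normalized counts in snf22∆ cells and 6859.7, 6469 and 6058 in snf22-(D996A-E997A), against 7237, 9557 and 6898 in WT, with WT replicate 2 far above the rest. The log2 fold change of rpn11 was -0.39 ± 0.11 in snf22∆ (adjusted p 0.0104) and -0.29 ± 0.11 in snf22-(D996A-E997A) (adjusted p 0.046). The call in snf22-(D996A-E997A) was lost without WT replicate 2, any snf22∆ library or any snf22-(D996A-E997A) library (adjusted p 0.0539 to 0.135), with a value of -0.14 without WT replicate 2. Without both libraries that stood apart the values of rpn11 were -0.23 (adjusted p 0.00155) in snf22∆ cells and -0.18 (0.0151) in the snf22-(D996A-E997A) mutant. The gene for its inactive partner subunit, rpn8, had 7316, 7636 and 7647 counts in snf22∆ cells and 7201, 7591 and 7159 in snf22-(D996A-E997A), against 8738, 10131 and 8580.2 in WT. It fell in snf22∆ (-0.28 ± 0.08; adjusted p 0.00906) and snf22-(D996A-E997A) (-0.32 ± 0.08; adjusted p 0.00584) with no overlap.

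Of the other lid genes, rpn15, for the small subunit also known as Dss1, rose in snf22∆ (0.57 ± 0.11; adjusted p 0.00141) and in snf22-(D996A-E997A) (0.34 ± 0.11; adjusted p 0.0264; 0.0574 to 0.0706 without any 1 of its libraries). The rises of rpn12 were 0.37 ± 0.09 (adjusted p 0.00492) and 0.37 ± 0.09 (adjusted p 0.00671), nearly equal. In snf22∆ alone the test was passed by rpn6 (0.35 ± 0.10; adjusted p 0.011) and rpn7 (0.20 ± 0.08; adjusted p 0.0436). The rpn7 call was lost without WT replicate 2 or 3, snf22∆ replicate 1 or 2, or snf22-(D996A-E997A) replicate 2 or 3 (adjusted p 0.0536 to 0.205), and with replicates paired by number it had an adjusted p of 0.0538. Without WT replicate 2 the snf22∆ values of rpn12, rpn6 and rpn7 were 0.24, 0.19 and 0.11, and the snf22-(D996A-E997A) value of rpn15 was 0.20. Without both libraries that stood apart the values of rpn6 and rpn15 in the same comparisons were 0.22 and 0.21. The genes rpn3 and rpn9 passed in neither mutant.

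**Figure D3:**
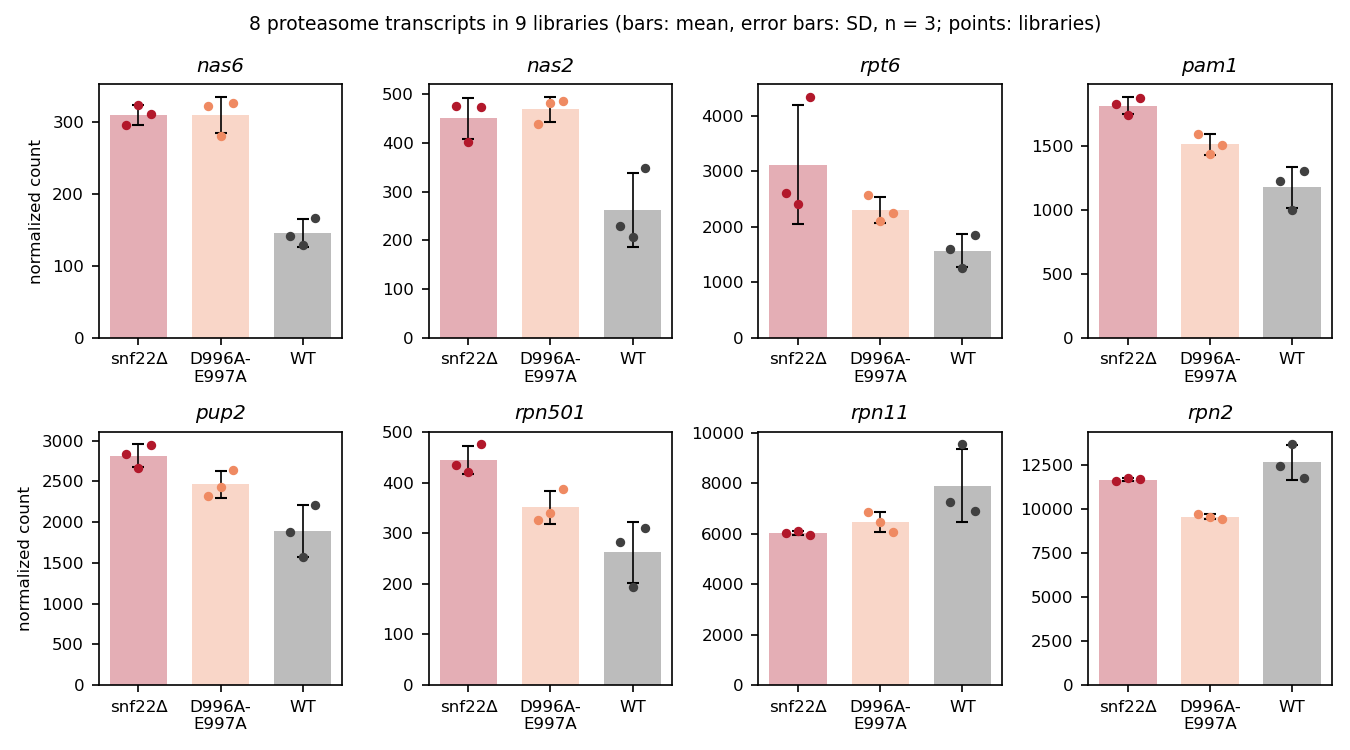
Normalized counts of 8 proteasome transcripts in each library (points), with the mean (bars) and SD (error bars, n = 3), for snf22∆, snf22-(D996A-E997A) and WT; each panel has its own axis from 0. The mutants lie above WT for nas6, nas2, rpt6, pam1, pup2 and rpn501 and below it for rpn11, and for rpn2 the snf22-(D996A-E997A) libraries, at 9428 to 9699, are lowest.

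Among the assembly factors 3 rose and 1 fell in each mutant, with medians of -0.03 in snf22∆ cells and 0.02 in snf22-(D996A-E997A). The chaperone gene nas6 (SPAC6C3.08), whose product gankyrin binds the Rpt3 ATPase during assembly of the base, had 295, 322 and 311 normalized counts in snf22∆ cells and 322, 280.2 and 326 in snf22-(D996A-E997A), against 141, 128 and 166 in WT. Every mutant library had more than any WT library. The means were 309 ± 14 in snf22∆ cells and 309.5 ± 25 in snf22-(D996A-E997A), against 145 ± 19 in WT (SD, n = 3), and the log2 fold changes were 1.10 ± 0.13 (adjusted p 7.08e-05) and 1.10 ± 0.13 (adjusted p 9.33e-05). Both stayed past the adjusted p in every alternative, but both lay close to 2-fold: the value in snf22∆ was 0.99 without WT replicate 2, which ended the 2-fold call, and the value in snf22-(D996A-E997A) was 0.99 without both libraries that stood apart. The number of genes with a 2-fold call was 3 in snf22∆ cells and 2 in snf22-(D996A-E997A) without WT replicate 3, and 2 in snf22∆ without its replicate 1 or 2.

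Another base chaperone gene, nas2 (SPAC2H10.02c), whose product binds Rpt5, had 477, 401 and 474 normalized counts in snf22∆ cells and 438, 483 and 486 in snf22-(D996A-E997A), against 230.4, 207 and 349 in WT. All mutant libraries were above WT, and the difference on the log2 scale was 0.79 ± 0.17 for snf22∆ (adjusted p 0.00277) and 0.85 ± 0.17 for snf22-(D996A-E997A) (adjusted p 0.00261). In ASM294v3, 85.8% of nas2 lies opposite another counted gene. The core chaperone gene pac3 rose by 0.64 ± 0.12 in snf22∆ (adjusted p 0.00103) and 0.47 ± 0.12 in snf22-(D996A-E997A) (adjusted p 0.00829), with 99.3% of its span opposite another gene. Downward went ump1, whose product is a maturation factor that the finished core breaks down, at 2864, 2674 and 2755 counts in snf22∆ cells and 2673, 2825 and 2623 in snf22-(D996A-E997A), against 3041, 3436 and 2940.0 in WT, with no overlap. On the log2 scale the fold change was -0.18 ± 0.07 (adjusted p 0.0494) in snf22∆ cells and -0.21 ± 0.07 (adjusted p 0.0311) in the snf22-(D996A-E997A) mutant. The snf22∆ call was lost without any 1 library except WT replicate 3 or snf22-(D996A-E997A) replicate 3 (adjusted p 0.0539 to 0.157) and with replicates paired by number (0.0502), and the other was lost without snf22-(D996A-E997A) replicate 1 or 3 (0.0719 and 0.106). Without both libraries that stood apart the values of ump1 were -0.12 (0.0683) in snf22∆ cells and -0.14 (0.0614) in the snf22-(D996A-E997A) mutant. The chaperone genes pac4 and SPCC18.17c and the adaptor gene ecm29 passed in neither mutant.

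Of the remaining genes, fub1, for a homolog of the mammalian proteasome inhibitor PI31, had 383, 358 and 313 normalized counts in snf22∆ cells and 286, 277 and 307 in snf22-(D996A-E997A), against 304, 236 and 274 in WT. It rose in snf22∆ (0.37 ± 0.13; adjusted p 0.0284), a call lost without WT replicate 2 or 3, snf22∆ replicate 1 or 2, or snf22-(D996A-E997A) replicate 3 (adjusted p 0.0542 to 0.115), and 53.9% of it lies opposite another gene. Its value in snf22-(D996A-E997A) was 0.10 ± 0.13 (adjusted p 0.559). The cofactor gene txc1 had 1420.0, 1523 and 1434 counts in snf22∆ cells and 1608, 1736 and 1686 in snf22-(D996A-E997A), against 1780.4, 2022 and 1895 in WT. Both mutants lay below WT in every library, and it fell in snf22∆ (-0.38 ± 0.07; adjusted p 0.00119), with -0.18 ± 0.07 (adjusted p 0.0557) in the snf22-(D996A-E997A) mutant. In snf22-(D996A-E997A), txc1 passed downward in 5 of 17 alternative fits. The nuclear tether gene cut8 passed in neither mutant.

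The paralog fub2 (SPBP4G3.03) was nearly silent. It had 0, 0 and 0 raw counts in snf22∆ cells and 5, 0 and 1 in snf22-(D996A-E997A), against 3, 7 and 11 in WT, too few for a test or a fold. It lies between pho1, for acid phosphatase, and SPBPB2B2.01, for an amino acid transporter, in the ASM294v3 gene order. The log2 fold change of pho1 was -5.76 in snf22∆ (adjusted p 1.97e-10) and -6.76 in snf22-(D996A-E997A) (8.03e-11), and that of SPBPB2B2.01 was -7.15 (6.95e-09) and -8.31 (1.13e-08). Of 92 neighbor positions of the 46 genes, 4 (4.35%) held a gene with a 2-fold call in either mutant, beside 5.50% of all coding genes tested. These positions were next to fub2, rpt6 and nas2. The urea transporter gene SPBC23G7.13c, after rpt6, had 27.1, 44.2 and 59.0 normalized counts in snf22∆ cells and 13.8, 24.6 and 4.10 in snf22-(D996A-E997A), against 219, 335 and 219 in WT (log2 fold changes -2.57, adjusted p 1.90e-04, and -4.17, 2.39e-05). Before nas2, the log2 fold change of the transcription factor gene SPAC2H10.01 was -1.22 in snf22-(D996A-E997A) (adjusted p 8.67e-04) and 0.46 in snf22∆ (0.0646).

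Few genes passed the test when the mutants were compared with each other. No proteasome gene was higher in snf22-(D996A-E997A) than in snf22∆ cells and 3 (6.67%) were lower by edgeR, beside 8.28% and 8.02% of all coding genes tested. At an unadjusted p under 0.05 in edgeR, 2 were higher and 9 lower. DESeq2 called 1 higher and 3 lower at the adjusted threshold. No shares of all coding genes were taken beside these counts, so they are not a result about proteasome genes. None met the 2-fold call, beside 1.51% of coding genes in either direction. The median log2 fold change was -0.10, beside -0.01 over coding genes.

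All 3 lower genes were in the base. For rpn2, with the counts given above, the log2 fold change of snf22-(D996A-E997A) relative to snf22∆ was -0.29 ± 0.07 (adjusted p 0.0176), and for rpt5 it was -0.29 ± 0.07 (adjusted p 0.0132). The ATPase gene rpt2 (SPBC4.07c) had 4698, 5031 and 4769 normalized counts in snf22-(D996A-E997A), against 6219.6, 5696 and 5721 in snf22∆, and 5259, 4481 and 5312 in WT. Its log2 fold change was -0.28 ± 0.08 between the mutants (adjusted p 0.03) and 0.23 ± 0.08 in snf22∆ relative to WT (adjusted p 0.0275), and the call relative to WT was lost without WT replicate 2, snf22∆ replicate 1 or 3, or snf22-(D996A-E997A) replicate 3 (adjusted p 0.0502 to 0.113). In all 3 genes the libraries of the mutants did not overlap. The same was true of genes that did not pass, such as mts4 (adjusted p 0.279) and rpn3 (0.46). All 11 base genes had negative values, with a median of -0.22, and 8 of them did not pass the test. Positive values were found for 2 of 7 alpha, 2 of 7 beta, 2 of 10 lid and 4 of 7 assembly genes. Over all 45 genes they numbered 11, beside 2399 of 4965 coding genes. For nas6 the difference was 0.00 ± 0.13 (adjusted p 0.999).

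These 3 calls depended on the libraries used. The number of lower genes was 0 without snf22∆ replicate 1, snf22∆ replicate 2 or snf22-(D996A-E997A) replicate 3, and 1 without snf22∆ replicate 3 or snf22-(D996A-E997A) replicate 2. Without WT replicate 2, which is in neither group compared here, 12 genes were lower and 2 higher, and 2 were higher without WT replicate 3. Without both libraries that stood apart, 11 were lower and 2 higher, and with only the mutant libraries in the fit 13 were lower and 2 higher. The lower calls gained without both libraries were those of pam1, pre4, pre5, pre9, rpn6, rpn15, rpt1 and cut8, most of them outside the base. The higher calls gained there were those of pup3 and txc1 (adjusted p 0.00212 to 0.0367 over these genes). Shares of all coding genes were taken for the main fit only, so whether coding genes in general gained calls in these fits was not tested.

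Levels per kilobase of exon, taken from ASM294v3 exon lengths, lay closer together in the mutants. Subunits of the 20S core are present in equal numbers in the particle, but their transcripts ran from 1825 normalized counts per kb for pam1 to 4925 for pts1 in snf22∆, a ratio of 2.70, and from 1519.6 for pam1 to 5222 for pts1 in snf22-(D996A-E997A), a ratio of 3.44, against 1182 for pam1 to 5919.8 for scl1 in WT, a ratio of 5.01. The SD of the log2 levels of the 14 core genes was 0.44 ± 0.03 in snf22∆ cells and 0.56 ± 0.03 in snf22-(D996A-E997A), against 0.75 ± 0.14 in WT (SD over 3 libraries). The 21 genes of the 19S particle had 1.05 ± 0.03 and 1.11 ± 0.04, against 1.32 ± 0.13 in WT. For both sets each mutant library lay below all WT libraries, of which replicate 2 was the widest, at 0.90 and 1.46.

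The coding genes with over 100 normalized counts had the same order, with 1.89 ± 0.02 in snf22∆ cells and 1.92 ± 0.03 in snf22-(D996A-E997A), against 2.1 ± 0.10 in WT. Summed normalized counts of the core genes were 56916 ± 830 in snf22∆ cells and 55924 ± 1550.4 in snf22-(D996A-E997A), against 59259 ± 2642 in WT, and those of the 19S genes were 92431 ± 823 and 84281 ± 1199, against 88745 ± 1041. In the 19S sums the 3 genotypes did not overlap: snf22∆ was highest and snf22-(D996A-E997A) lowest. The sums were not tested, and no such sum was set beside them for other genes. Abundant genes weigh most in them, such as rpn2, with means of 11683, 9562 and 12653 in snf22∆, snf22-(D996A-E997A) and WT.

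**Figure D4:**
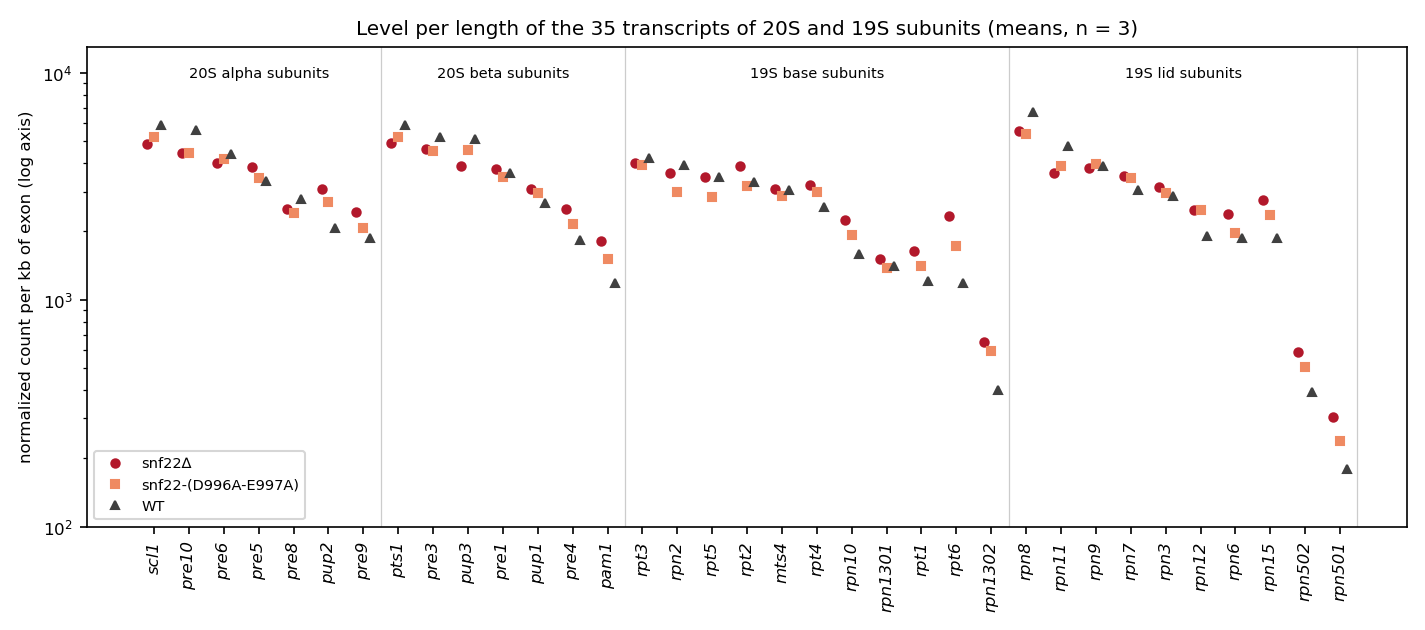
Mean normalized count per kilobase of exon (log axis, n = 3) of 35 genes for 20S and 19S subunits in snf22∆ (circles), snf22-(D996A-E997A) (squares) and WT (triangles), ordered within each class by the WT level. WT symbols lie above the mutants for the most abundant subunits, such as rpn8, and below them for the least abundant, such as pam1, rpn501 and rpn502.

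The rest of the ubiquitin pathway was examined through 36 listed genes for ubiquitin, its conjugation, its receptors, Cdc48 and deubiquitylation, of which 34 were tested. The calls of these genes, and those of the neighbors above, were not followed through the fits with libraries left out. In snf22∆ 6 (17.6%) rose and 8 (23.5%) fell, beside 33.5% and 24.7% of all coding genes, with a median log2 fold change of -0.06, beside 0.06. In snf22-(D996A-E997A) 4 (11.8%) rose and 9 (26.5%) fell, beside 28.1% and 19.7%, with a median of -0.05, beside 0.06. Only uch1, for a ubiquitin hydrolase, met the 2-fold call. It had 582, 509.8 and 568 normalized counts in snf22∆ cells and 522, 475 and 512 in snf22-(D996A-E997A), against 251, 186 and 316 in WT, with log2 fold changes of 1.14 ± 0.16 (SE; adjusted p 1.90e-04) and 1.01 ± 0.16 (5.92e-04). The genes for the deubiquitylases that associate with the proteasome, ubp6 and uch2, rose in snf22∆ by 0.45 ± 0.14 (adjusted p 0.0168) and 0.32 ± 0.10 (adjusted p 0.0162) on the log2 scale, and had 0.23 ± 0.14 (0.184) and 0.07 ± 0.10 (0.576) in the snf22-(D996A-E997A) mutant.

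Among the genes that supply ubiquitin, the polyubiquitin gene ubi4 fell in both mutants, by a log2 fold change of -0.21 ± 0.08 (adjusted p 0.0480) in snf22∆ cells and -0.44 ± 0.08 (0.00185) in the snf22-(D996A-E997A) mutant. The ribosomal fusion gene ubi1 fell in snf22∆ (-0.42 ± 0.08; adjusted p 0.00112), with -0.05 ± 0.08 (0.623) in the snf22-(D996A-E997A) mutant, and was higher in snf22-(D996A-E997A) than in snf22∆ by 0.37 ± 0.08 (0.00810). The fusion gene ubi3 fell in snf22∆ (-0.18 ± 0.07; 0.033), with 0.01 ± 0.07 (0.946) in snf22-(D996A-E997A). For ubi5 the values were positive and did not pass (0.18 ± 0.07; 0.0516, and 0.07 ± 0.07; 0.441). The segregase gene cdc48, for the ATPase that delivers ubiquitylated proteins to the proteasome, had 24335, 24960 and 23947 normalized counts in snf22-(D996A-E997A), against 30149, 29924 and 28303 in snf22∆, and 30268, 27231 and 28496 in WT. Its log2 fold change between the mutants was -0.27 ± 0.07 (adjusted p 0.0241), and that of ubx3, for a cofactor of Cdc48, was -0.29 ± 0.07 (0.0152), both lower in snf22-(D996A-E997A). The other listed cofactor genes, ufd1, npl4 and ubx2, did not pass between the mutants. Relative to WT, ufd1 rose in snf22∆ (0.44 ± 0.10, adjusted p 0.00273) and snf22-(D996A-E997A) (0.40 ± 0.10, 0.00605). For ubx2 the rise passed in snf22∆ alone (0.55 ± 0.12, 0.00296), and npl4 passed in neither mutant.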

How the data were processed

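Polyadenylated RNA from 9 cultures was sequenced with a stranded, paired-end protocol. The authors aligned reads with HISAT2 2.1.0 to ASM294v2 and deposited raw counts per gene from HTSeq 0.10.0. Their tables of fold changes and p-values were used only for product descriptions. The strand setting of the counting is not given in the sources used here. Of 6989 rows, 1 gene ID stood on more than 1, and 6848 of 6988 IDs matched ASM294v3, used here for gene class, exon length and neighbors only.

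The 6091 genes (4965 coding) that reached 10 counts in 3 or more libraries were fitted with edgeR 4.0.16 (quasi-likelihood test, TMM normalization, R 4.3.3), all 9 libraries in 1 model, with Benjamini-Hochberg adjustment over all genes. Adjusted p-values are from this fit unless another is named, and errors on log2 fold changes are standard errors. The common biological coefficient of variation was 0.104. Normalized counts are counts divided by the TMM effective library size and scaled to the mean library. The p-values measure the spread between cultures of 1 strain. The genes and lists were chosen with earlier results of these data known. Genes described in full were those with a 2-fold call, the 2 genes per class with the largest rise and the 2 with the largest fall in either mutant among those past the threshold, those that differed between mutants, and the catalytic subunits.

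Same-numbered snf22∆ and WT libraries deviated together (correlations 0.29, 0.23 and 0.47), above those of different numbers (at most 0.09). Same-numbered snf22-(D996A-E997A) and WT libraries (-0.24, 0.05 and 0.16) and same-numbered mutants (-0.03, 0.09 and 0.03) did not. Differently numbered snf22-(D996A-E997A) and WT libraries reached 0.32. The labels do not say that a number marks a shared day or batch, so whether replicates were paired is not known. Alternatives were other size factors, DESeq2 1.42.0, other filters, 2-group fits, a replicate block, and fits without each library. A fit without both WT replicate 2 and snf22-(D996A-E997A) replicate 1 was added after seeing the data.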

Additional observations from a re-analysis of the deposited data

How the results depend on the processing

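In snf22∆ relative to WT the numbers of higher and lower genes stayed within 1.5 times the reported 22 and 8 under every alternative run, and 2-fold calls (1) numbered 0 to 3 with 1 library left out. In snf22-(D996A-E997A) relative to WT the 12 higher genes became 5 to 16 and the 8 lower genes 4 to 10 with 1 library left out. With only the 2 groups compared in the fit, 4 were lower. The 1 gene with a 2-fold call became 1 to 2 with 1 library left out and 0 without both libraries that stood apart. Between the mutants, the 0 higher genes became 1 with DESeq2, 2 with only the 2 groups compared, 2 without both libraries that stood apart, and 0 to 2 with 1 library left out. The 3 lower genes became 13, 11 and 0 to 12 under the last 3 of these, and the median of -0.10 became -0.072 without both libraries that stood apart and -0.11 to -0.065 with 1 left out. With the replicate block, snf22∆ had 21 higher and 7 lower genes, with 13 and 10 for snf22-(D996A-E997A), and 0 and 4 between the mutants. In snf22∆ against WT the block changed no call but those of rpn7 and ump1. Of 1224 alternative values of the genes described in full, 1077 kept their side of the threshold, 107 lost the call, 40 gained one and 0 reversed a call. Some values that did not pass crossed 0, such as that of rpt5 in snf22∆ relative to WT (-0.07 to 0.04). Other size factors shifted the median of all coding genes by at most -0.04. With 3 libraries a group, a difference near the gene's own standard error, which ranged from 0.06 to 0.20 between genes, was not detectable. Why a library or fit changed a call was not tested.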
